A study of Arabidopsis thaliana with 10 samples.

Results

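The small RNA and RNA-directed DNA methylation machinery of Arabidopsis thaliana was followed in pollen as 44 genes, chosen by name from the 27394 genes of the deposited tables. They comprise 10 Argonautes, 4 Dicers, 5 double-stranded RNA-binding proteins, 3 RNase III-like proteins, 3 subunits of RNA polymerases Pol IV and Pol V, 5 partners of Pol IV, 7 partners of Pol V, 3 RNA-dependent RNA polymerases with their helper SGS3, and 3 factors of microRNA processing, methylation and export. The rule names genes and uses no measured value, and all 44 had a row in the table of every library, with 19 to 41 of them above 0 reads.

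Messenger RNA was sequenced from pollen in 10 libraries, 2 biological replicates in each of 5 groups, and every group was in the Col-0 background. WT Col-0 pollen carried no construct. The transgene groups carried Myc-tagged RTL1 under the LAT52 promoter, which is active in the late microspore and then mainly in the vegetative cell (pLAT52::RTL1), or under the MGH3 promoter of the male germline (pMGH3::RTL1). By the methods of the study each construct was represented by independent lines, so replicates of a construct also differ by line. The WT FTL and nrpd1a-3 FTL groups were sorted by flow cytometry from plants heterozygous for the nrpd1a-3 insertion. In these plants a pLAT52::DsRed marker (a fluorescence-tagged line, FTL) was linked to the wild-type NRPD1A copy, so red grains were taken as WT FTL and the others as nrpd1a-3 FTL. Ages of the plants are not given in the sources used here.

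In plants, small RNAs are cut from double-stranded RNA by Dicers and loaded into Argonautes, which they guide to matching transcripts or loci. In RNA-directed DNA methylation, Pol IV and RDR2 make the double-stranded precursors, DCL3 cuts them, and an Argonaute of the AGO4 clade carries the product to transcripts of Pol V, where DNA is methylated. A pollen grain holds a vegetative cell, whose chromatin is relaxed, and the sperm cells inside it, and the pathway silences transposable elements (TEs) in this lineage.

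The 10 marker genes fixed for sperm cells and the 10 for the vegetative cell all had reads in every library. Sperm cell markers summed to 361 to 703 reads per 1000000 reads over genes and TEs (RPM) in all groups. PCR11 held most of these reads, so the sum mainly follows that gene. In WT FTL against WT Col-0, PCR11 was higher, GEX2 and GEX3 were lower, and 7 sperm cell markers were not called (DESeq2 adjusted p under 0.05). Vegetative cell markers summed to 31075 to 41066 RPM in the 6 unsorted libraries and to 13495 to 19726 in the 4 sorted ones. VGD1, a pectin methylesterase of pollen, made up most of the unsorted sum. Without it the sums were 6490 to 8008 and 8695 to 17363 RPM, higher in the sorted libraries. RALF4 (974 to 1443 RPM unsorted, 3226 to 10603 sorted) and RALF19 (1042 to 1571 and 2735 to 5268) rose there. Other vegetative cell markers fell: in WT FTL against WT Col-0, 4 of the 10 were lower and 2 higher at a DESeq2 adjusted p under 0.05. Leaf markers were at 42.2 RPM or less, and markers of the tapetum and anther wall at 7.79 or less. The libraries held 43490027 to 53471964 reads over genes and TEs.

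Reads of the machinery were few and very uneven. Together the 44 genes took 49.2 to 75.6 RPM in the unsorted libraries and 15.4 to 32.2 in the sorted ones. AGO9, an Argonaute of the AGO4 clade known from companion cells of the ovule, held 52.2% to 60.2% of these reads in the unsorted libraries, and 3.40% to 19.6% in the sorted ones. A mean of at least 50 reads in a group was reached by 10 genes: AGO9, AGO5, CLSY2, CLSY4, DCL1, DRB3, DRB4, SE, HEN1 and, in the transgenic pollen, RTL1. The other 34 stayed below that mean, and 13 of them never reached 10 reads in a library. In these bulk samples, fewer cells of a type and less RNA per cell cannot be told apart.

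**Figure D1:**
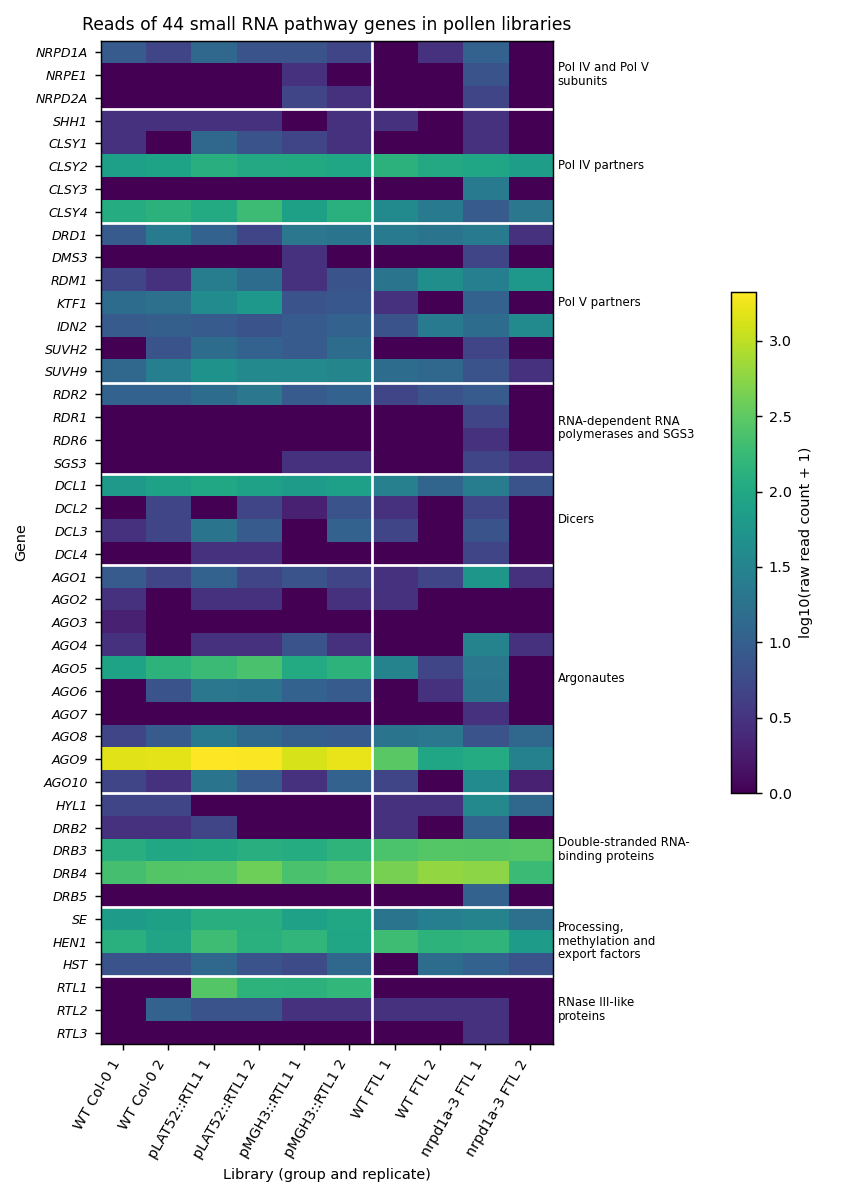
Raw reads of the 44 genes (rows, by role) in the 10 libraries (columns), as log10 of the count plus 1. AGO9 is the brightest row in the 6 unsorted libraries, RTL1 has reads only in the 4 transgenic ones, and nrpd1a-3 FTL replicate 1 has reads for 41 of the 44 genes.

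AGO9 and AGO5 were the only Argonautes above the mean of 50 reads. For AGO5, an Argonaute of reproductive tissues, the 250 bases before its annotated start are printed here (RefSeq annotation of TAIR10.1, 5′ to 3′ on the coding strand, chr2:11871128-11871377, plus strand). Capitals mark AACCG, the core of the sites bound by DUO1, a transcription factor of the Arabidopsis male germline.
AGO5: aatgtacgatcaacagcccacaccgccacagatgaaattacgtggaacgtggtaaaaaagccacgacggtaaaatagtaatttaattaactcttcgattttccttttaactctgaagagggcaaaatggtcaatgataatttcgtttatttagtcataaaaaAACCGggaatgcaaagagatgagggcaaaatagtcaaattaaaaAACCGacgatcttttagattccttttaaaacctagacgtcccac

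Searched on both strands, AACCG occurred 2 times before AGO5, while AGAAA and GTGA, short elements described in pollen promoters of tomato and tobacco, occurred 0 times there. All these elements are common: among the same windows of 27443 protein-coding genes, 23.2% held AACCG, 82.5% held AGAAA and 77.5% held GTGA, and among the 44 members 10, 33 and 32 did. The matches are descriptions of the letters in this window only.

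RTL1 (AT4G15417, TAIR10 chromosome 4, 8821717 to 8823076, plus strand), which cuts double-stranded precursors of small RNAs, checks the transgenic labels. The pLAT52::RTL1 libraries held 270 and 138 of its reads, and the pMGH3::RTL1 libraries 134 and 156. No read of RTL1 was counted in WT Col-0, WT FTL or nrpd1a-3 FTL. The transgenic libraries were thus separate from all others, and those of the 2 constructs overlapped each other. RTL1 was higher than in WT Col-0 in pLAT52::RTL1 (DESeq2 adjusted p 7.66e-09) and in pMGH3::RTL1 (DESeq2 adjusted p 2.77e-06). With the counts of 0 in WT Col-0 set to a floor of 3 reads per library, the ratios of mean normalized counts were 44.6 and 44.4. The floor takes each read as counted on its own. These ratios would be smaller if both mates of a pair were counted, so they are no lower bound. The second call was lost without WT Col-0 replicate 2 (DESeq2 adjusted p 0.107). RTL2, which processes ribosomal and small RNA precursors, had 0 to 10 reads in a library, and RTL3, a related protein, had 2 reads in nrpd1a-3 FTL replicate 1 and 0 elsewhere.

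NRPD1A (AT1G63020, chromosome 1, 23354685 to 23362564, minus strand), the catalytic subunit of Pol IV, checks the mutant label. It had raw counts of 8 and 4 for WT Col-0, 12 and 6 for pLAT52::RTL1, 6 and 4 for pMGH3::RTL1, 0 and 2 for WT FTL, and 10 and 0 for nrpd1a-3 FTL. The sorted groups overlapped, and at this depth the mutant label could not be checked from the gene (log2 fold change 2.36 ± 3.33 SE, DESeq2 adjusted p 0.99). NRPE1, the catalytic subunit of Pol V, had reads in pMGH3::RTL1 replicate 1 (2 reads) and nrpd1a-3 FTL replicate 1 (6 reads). NRPD2A, the second subunit shared by both polymerases, had 4 reads at most and shares 105 windows of 100 bases with AT3G18090, so its reads are uncertain.

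In WT Col-0 pollen the members were ordered by RPKM, the reads scaled to exon length and to the reads of the library over genes and TEs. AGO9 was highest, at 11.1 and 9.67 RPKM in the 2 libraries, and 93.2% of the 26907 genes with an exon length were lower. DRB4, the double-stranded RNA-binding partner of DCL4, followed at 3.66 and 3.84 RPKM, so AGO9 was 2.77 times as high. Both stood clear of every other member. With the genomic span in place of exon length this ratio was 1.96.

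Below them the order was less firm. DRB3, which acts with DCL3 and AGO4 in defence against DNA viruses, was at 1.32 and 0.843 RPKM. CLSY4, a chromatin remodeller that directs Pol IV to its loci, was at 0.717 and 0.724 RPKM, AGO5 at 0.571 and 0.800, and HEN1, which methylates small RNA ends, at 0.855 and 0.478. The range of HEN1 took in those of CLSY4, AGO5 and SE, and reached into that of DRB3, so these neighbours did not differ beyond their spread. SE (SERRATE), a zinc-finger protein of microRNA processing, CLSY2, another remodeller of the same family, and DCL1, the Dicer of microRNAs, came next with means of 0.571, 0.395 and 0.235 RPKM, and the libraries of these 3 did not overlap. Each of the remaining members had a mean of 0.138 RPKM or less.

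**Figure D2:**
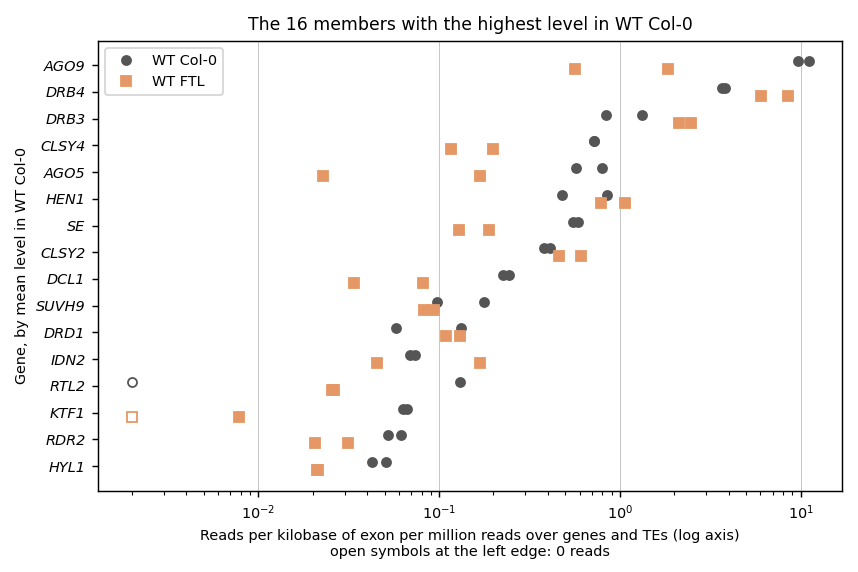
Level of the 16 members that were highest in WT Col-0, in RPKM on a log axis, with 1 point per library for WT Col-0 (circles) and WT FTL (squares). AGO9 leads in WT Col-0 at 11.1 and 9.67 RPKM, whereas DRB4 leads in WT FTL.

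Among the polymerase partners, CLSY2 and CLSY4 stood out. CLSY2 (AT5G20420) had raw counts of 75 and 83 for WT Col-0, 120 and 101 for pLAT52::RTL1, 103 and 88 for pMGH3::RTL1, 136 and 100 for WT FTL, and 93 and 72 for nrpd1a-3 FTL. CLSY4 (AT3G24340) had raw counts of 114 and 137 for WT Col-0, 106 and 190 for pLAT52::RTL1, 77 and 129 for pMGH3::RTL1, 38 and 22 for WT FTL, and 8 and 20 for nrpd1a-3 FTL. CLSY4 was thus lower in all 4 sorted libraries than in any unsorted one, and CLSY2 was not. How many of all genes separate between groups in this way, here and for the members below, was not counted. Differences were common: 30.3% of 16312 features had a DESeq2 adjusted p under 0.05 in WT FTL against WT Col-0 (15.4% lower, 14.9% higher). CLSY1, a further remodeller, had 0 to 12 reads. CLSY3, known for directing Pol IV in ovules and tapetum, had 22 reads in nrpd1a-3 FTL replicate 1 and 0 in the 9 other libraries. SHH1, a reader of histone methylation that recruits Pol IV, had 2 reads at most and overlaps AT1G15220, which had 6 to 36.

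The partners of Pol V were weakly detected. SUVH9, which binds methylated DNA, had 12 to 48 reads in the unsorted and 2 to 14 in the sorted libraries, and its relative SUVH2 had 0 to 14 reads in all. DRD1 and DMS3, parts of the complex that brings Pol V to chromatin, had 2 to 22 and 0 to 4 reads, and IDN2, which binds double-stranded RNA, had 6 to 38. RDM1, the third part of that complex, had raw counts of 4 and 2 for WT Col-0, 24 and 14 for pLAT52::RTL1, 2 and 6 for pMGH3::RTL1, 18 and 44 for WT FTL, and 26 and 58 for nrpd1a-3 FTL. KTF1, a protein that binds transcripts of Pol V and AGO4, had raw counts of 14 and 16 for WT Col-0, 39 and 59 for pLAT52::RTL1, 6 and 7 for pMGH3::RTL1, 2 and 0 for WT FTL, and 10 and 0 for nrpd1a-3 FTL. KTF1 was highest in pLAT52::RTL1 with no overlap, while RDM1 of pLAT52::RTL1 overlapped WT FTL and lay below nrpd1a-3 FTL.

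RDR2, the polymerase that copies Pol IV transcripts, had 8 to 20 reads in the unsorted libraries and 0 to 8 in the sorted ones. RDR1 and RDR6, which copy viral and cleaved transcripts, had reads only in nrpd1a-3 FTL replicate 1, with 4 and 2, and SGS3, the helper of RDR6, had 4 at most. DCL1 (AT1G01040) was the one Dicer with more than 18 reads in any library. It had raw counts of 62 and 79 for WT Col-0, 96 and 78 for pLAT52::RTL1, 68 and 74 for pMGH3::RTL1, 27 and 11 for WT FTL, and 24 and 6 for nrpd1a-3 FTL, so that sorted and unsorted libraries did not overlap. Its end overlaps AT1G01050, which had 268 to 1292 reads. DCL3, the Dicer of RNA-directed DNA methylation, reached 18 reads, DCL2 reached 6 and DCL4 reached 4, both of them Dicers of antiviral and secondary small RNAs.

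AGO9 and AGO5, 2 of the 10 Argonaute genes, held 96.9% to 98.8% of Argonaute reads in the unsorted libraries, 92.7% and 78.3% for WT FTL, and 46.3% and 62.2% for nrpd1a-3 FTL. AGO9 (AT5G21150, chromosome 5, 7192239 to 7198324, plus strand) had raw counts of 1482 and 1540 for WT Col-0, 2110 and 2026 for pLAT52::RTL1, 1321 and 1619 for pMGH3::RTL1, 298 and 90 for WT FTL, and 110 and 28 for nrpd1a-3 FTL. AGO5 (AT2G27880, chromosome 2, 11871488 to 11876894, plus strand) had raw counts of 84 and 140 for WT Col-0, 184 and 236 for pLAT52::RTL1, 108 and 138 for pMGH3::RTL1, 30 and 4 for WT FTL, and 20 and 0 for nrpd1a-3 FTL. Both genes were lower in every sorted library than in any unsorted one, and both had their highest raw counts in pLAT52::RTL1. AGO8, a close relative of AGO9 thought to be a pseudogene, had 4 to 21 reads, and no window of 100 bases was shared between them.

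The other Argonautes were near the limit of detection in most libraries. AGO1, the main microRNA effector, had 2 to 10 reads in 9 libraries and 56 in nrpd1a-3 FTL replicate 1. AGO4, the classical Argonaute of RNA-directed DNA methylation, had 0 to 6 reads in 9 libraries and 30 in that one. AGO10, a decoy for a microRNA in meristems, had 0 to 18 and 39. AGO6, which acts beside AGO4, had 0 to 20 reads, AGO2, an antiviral Argonaute, 0 to 2, AGO3, its relative, 0 to 1 and AGO7, which acts in trans-acting small RNA production, 0 to 2. At this depth a count of 0 allows up to 3 reads in a library, and more if both mates of a pair were counted.

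DRB4 and DRB3 led the double-stranded RNA-binding proteins. DRB4 (AT3G62800) had raw counts of 218 and 272 for WT Col-0, 280 and 388 for pLAT52::RTL1, 232 and 280 for pMGH3::RTL1, 434 and 602 for WT FTL, and 560 and 186 for nrpd1a-3 FTL. DRB3 (AT3G26932) had raw counts of 125 and 95 for WT Col-0, 104 and 124 for pLAT52::RTL1, 112 and 145 for pMGH3::RTL1, 243 and 277 for WT FTL, and 271 and 292 for nrpd1a-3 FTL. In raw counts, all sorted libraries were above all unsorted ones for DRB3, while nrpd1a-3 FTL replicate 2 was lowest of all for DRB4. That library also had the lowest size factor in the fit of all 10 libraries, 0.601, and the highest was 1.51. Its rank for DRB4 thus rests on the scaling. HYL1, the partner of DCL1, had 0 reads in the 4 transgenic libraries, 4 and 4 for WT Col-0, 2 and 2 for WT FTL, and 36 and 12 for nrpd1a-3 FTL, the highest in both mutant libraries. DRB2 and DRB5, further members of the family, had 10 reads at most.

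DRB3 lies beside a strongly transcribed stretch. The intergenic interval on its 3′ side (chromosome 3, 9929123 to 9930270) had 7992 ± 267 reads in WT Col-0 and 23297 ± 10573 in WT FTL (SD, n = 2), and the next gene, AT3G26934, had 30831 to 321089 reads in a library. The reads of DRB3 were 0.494% to 1.97% of those in the interval. In TAIR10.1 the last exon of DRB3 extends into this interval, as does the first exon of AT3G26934. It was the only one of 75 intergenic intervals beside the members that had more reads than its member in all 10 libraries, and its part in the DRB3 counts was not tested.

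SE (AT2G27100) had raw counts of 68 and 76 for WT Col-0, 120 and 122 for pLAT52::RTL1, 78 and 98 for pMGH3::RTL1, 18 and 26 for WT FTL, and 30 and 16 for nrpd1a-3 FTL. HEN1 (AT4G20910) had raw counts of 129 and 86 for WT Col-0, 193 and 127 for pLAT52::RTL1, 151 and 92 for pMGH3::RTL1, 194 and 141 for WT FTL, and 148 and 66 for nrpd1a-3 FTL. SE was lower in each sorted library than in any unsorted one, and the sorted and unsorted libraries of HEN1 overlapped. HST, the exporter of microRNAs, had 0 to 14 reads.

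**Figure D3:**
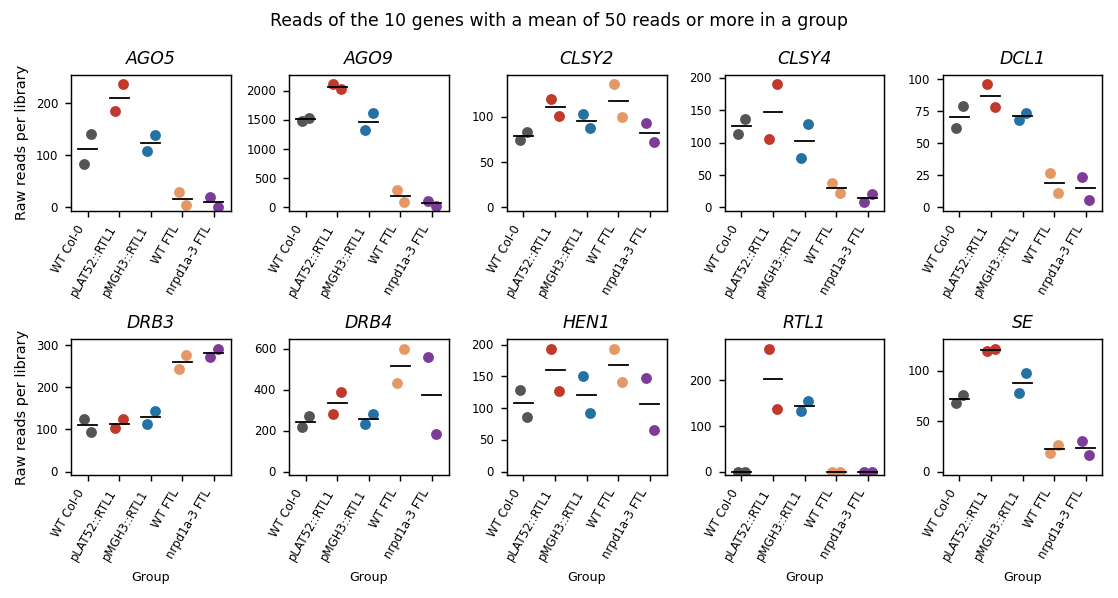
Raw reads of the 10 genes with a mean of at least 50 reads in a group, with 1 point per library and a line at the mean of each group. AGO5, AGO9, CLSY4, DCL1 and SE sit lower in the 4 sorted libraries, DRB3 sits higher, and RTL1 is at 0 outside the transgenic pollen. How many of all genes separate in this way was not counted.

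To determine whether RTL1 in the vegetative cell changed the transcripts of the machinery itself, pLAT52::RTL1 was set against WT Col-0. Apart from the transgene, no member was called, which here means a DESeq2 adjusted p under 0.05. Of 13 members with an adjusted p, RTL1 was the 1 called, beside 14.3% of all 11002 features tested. Of the 10 vegetative cell markers, 5 were called lower (BUPS2, VGD1, ACA9, BUPS1 and ANX2) and 0 higher. The leaf markers LHCB1.3 and RBCS1A were called higher, and 0 sperm cell markers were called. The part of other cells in this comparison was not tested. AGO9 had normalized counts of 1601 and 1578 in pLAT52::RTL1 and of 1878 and 1648 in WT Col-0 (log2 fold change -0.15 ± 0.18 SE, DESeq2 adjusted p 0.708), with a 95% interval of -0.50 to 0.20.

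The 9 genes above 50 reads other than RTL1 had log2 fold changes from -0.56 for DRB3 to 0.33 for AGO5, with SEs of 0.18 to 0.39. Their median was -0.14, and that of all features tested was -0.01. Raw counts of AGO9 were higher in pLAT52::RTL1 before scaling, as the size factors that set the scale were 1.32 and 1.28 there against 0.789 and 0.935 in WT Col-0. Scaling by total reads shifted the median of all features to 0.49 and the change of AGO9 to 0.33 (DESeq2 adjusted p 0.178), so its sign rests on the scaling.

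In pollen with RTL1 in the germline, pMGH3::RTL1 set against WT Col-0, RTL1 itself was the 1 member called. Here 38 members had an adjusted p, and 0.0217% of 27651 features were called. The leaf marker RBCS1A was among the features called higher, and 0 vegetative or sperm cell markers were called. AGO9 had normalized counts of 1447 and 1705 in pMGH3::RTL1, overlapping WT Col-0 (log2 fold change -0.16 ± 0.18 SE, 95% interval -0.51 to 0.19). The 9 genes ranged from -0.40 for CLSY4 to 0.17 for SE, with 95% intervals that reached from -1.16 to 0.89 in all. Both constructs were set against the same WT Col-0 libraries.

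A direct comparison of pLAT52::RTL1 with pMGH3::RTL1 called KTF1, which was higher under the LAT52 promoter. Its normalized counts were 29.6 and 45.9 in pLAT52::RTL1 and 6.57 and 7.37 in pMGH3::RTL1, with 17.7 and 17.1 in WT Col-0 between them (log2 fold change between the constructs 2.44 ± 0.77 SE, DESeq2 adjusted p 0.0152). It was the 1 call among 12 members, beside 12.9% of all 10497 features. Against WT Col-0, neither the log2 fold change of 1.12 ± 0.71 SE in pLAT52::RTL1 nor that of -1.32 ± 0.80 SE in pMGH3::RTL1 was called (DESeq2 adjusted p 0.353 and 1). KTF1 overlaps the TE AT5TE04360, which had 0 to 5 reads. Between the constructs 5 vegetative cell markers (BUPS2, VGD1, ACA9, BUPS1 and ANX2) were called lower in pLAT52::RTL1.

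The KTF1 call was fragile. KTF1 was not called when any of the 4 libraries of these constructs was left out, with log2 fold changes of 2.09 to 2.73. With the counts halved, as counting each read pair as 1 would give, its log2 fold change was 2.36 (DESeq2 adjusted p 0.0828). RTL1 did not differ detectably between the constructs (log2 fold change 0.01 ± 0.40 SE, 95% interval -0.77 to 0.78). AGO9 was at 0.01 ± 0.18 SE here, at 0.50 under scaling by total reads (DESeq2 adjusted p 0.0324) and at -0.10 without pMGH3::RTL1 replicate 1.

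Loss of Pol IV was assessed in the sorted grains, nrpd1a-3 FTL set against WT FTL. The groups also differ in the DsRed marker that is linked to NRPD1A, which cannot be told apart from the mutation here. No member was called among 42 with an adjusted p, beside 0.008% of 24995 features, and edgeR's quasi-likelihood test called none either. Both populations were sorted at the same time, but no source used here says that a replicate number marks a shared sort. With a replicate block 407 features and 0 members were called, with 1 member left with an adjusted p. AGO9 had normalized counts of 106 and 35.3 in nrpd1a-3 FTL and 248 and 86.4 in WT FTL, so the groups overlapped (log2 fold change -1.24 ± 0.75 SE, 95% interval -2.71 to 0.23). Within each replicate number the mutant library was the lower, and with a replicate block the log2 fold change was -1.26, without an adjusted p. For the 9 genes above 50 reads SEs were 0.52 to 1.79, wider than the 0.18 to 0.39 of the pLAT52::RTL1 comparison.

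At an unadjusted p under 0.05, 4 members stood out, all with positive values: AGO4 (log2 fold change 6.59 ± 2.45 SE), CLSY3 (6.02 ± 3.01 SE), HYL1 (3.80 ± 1.52 SE) and AGO1 (3.38 ± 1.59 SE), each with a DESeq2 adjusted p of 0.99. They were 4 of 42 members, beside 2.61% of all features at that unadjusted p. Except for HYL1, their reads in the mutant came almost only from nrpd1a-3 FTL replicate 1. The median log2 fold change of the tested members was 1.79, beside 0.16 over all features, and without that library it was -1.07, beside -0.44.

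That library stood apart from the rest in many members. It had reads for 41 of the 44, against 19 to 32 in the 9 other libraries, and 93.2% of members against 62.8% of all genes had a read there. CLSY3, RDR1, RDR6, AGO7, DRB5 and RTL3, 6 members in all, had reads in no other library, and 15 members had their highest count there. The matching shares of all genes were not counted. This library had a read for 17210 of all genes, against 12986 to 15140 in the other sorted libraries and 17272 in pLAT52::RTL1 replicate 1. Leaf markers were at 19.9 RPM in it, at 0.505 in nrpd1a-3 FTL replicate 2 and at 2.34 and 5.19 in WT FTL. The unsorted libraries had 22.6 to 42.2 RPM of leaf markers, most of it RBCS3B, and 0 reads of those 6 members. Without RBCS3B the sum was 4.39 to 12.5 RPM in the unsorted libraries and 17.5 in nrpd1a-3 FTL replicate 1. There 7 of the 10 leaf markers had their highest count. The others, RBCS1B, RBCS2B and RBCS3B, had 74, 4 and 123 reads there, against at least 114, 24 and 793 in each unsorted library. The part of other cells in this library was not tested.

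**Figure D4:**
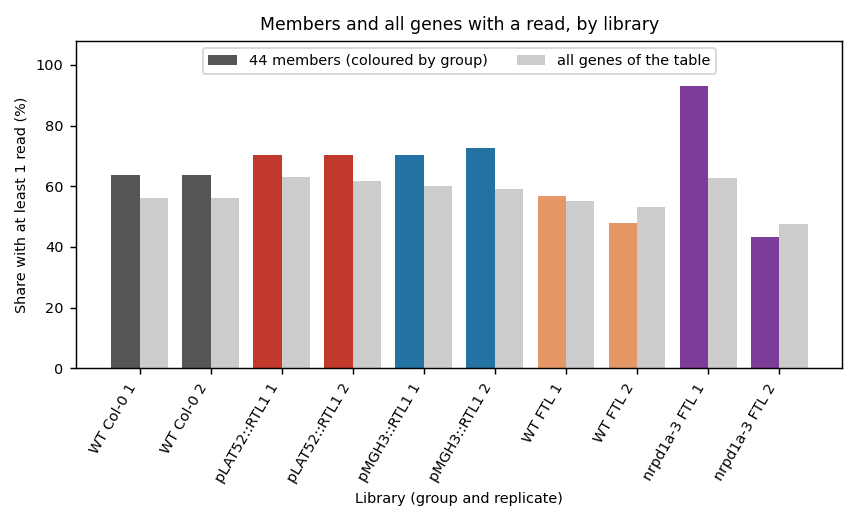
Share of the 44 members (coloured bars) and of all 27394 genes (grey bars) with at least 1 read, for each of the 10 libraries. The mutant library nrpd1a-3 FTL replicate 1 reaches 93.2% of members against 62.8% of genes, and nrpd1a-3 FTL replicate 2 is lowest with 43.2% and 47.4%.

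The wild-type groups themselves differed. WT FTL was sorted, came from heterozygous plants with DsRed and belonged to another experiment than WT Col-0, and these differences cannot be told apart. Of 27 members with an adjusted p, 6 were lower and 3 higher in WT FTL, beside 30.3% of all 16312 features called (15.4% lower and 14.9% higher). The share of called members, 9 of 27, was close to that background. The median log2 fold change of the 27 was -0.99, beside 0.00 over all features.

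The lower members were led by both abundant Argonautes. AGO9 had normalized counts of 275 and 101 in WT FTL and 1666 and 1451 in WT Col-0 (log2 fold change -3.05 ± 0.47 SE, DESeq2 adjusted p 2.81e-09). On the log2 scale, AGO5 fell by 2.79 ± 0.80 SE (DESeq2 adjusted p 0.00282) and CLSY4 fell by 2.10 ± 0.61 SE (DESeq2 adjusted p 0.00305). These 3 remained called when any 1 of the 4 libraries was left out, though AGO5 was not called under scaling by total reads (DESeq2 adjusted p 0.128). Vegetative cell markers moved both ways in WT FTL: of 10, 4 were called lower (VGD1, BUPS1, BUPS2 and ANX2), 2 higher (RALF4 and RALF19) and 4 not at all. Their sum was 15886 and 14439 RPM against 40511 and 38479 in WT Col-0, and without VGD1 it was 8695 and 11475 against 7968 and 8008. Their part in these changes was not tested.

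In log2 units, DCL1 fell by 1.94 ± 0.59 SE (DESeq2 adjusted p 0.00583), SERRATE (the gene SE) fell by 1.70 ± 0.51 SE (DESeq2 adjusted p 0.00454) and KTF1 fell by 3.97 ± 1.48 SE (DESeq2 adjusted p 0.0285). DCL1 and SE lost the call without WT Col-0 replicate 1 (DESeq2 adjusted p 0.0614 and 0.0751) or replicate 2 (0.0761 and 0.0556), DCL1 also without WT FTL replicate 2 (0.0924) and SE without WT FTL replicate 1 (0.074). Of the fits without a library, KTF1 remained called in the one without WT FTL replicate 1, and it was not called without independent filtering (DESeq2 adjusted p 0.053) or with counts halved (0.0695). The neighbour AT1G01050, which overlaps the end of DCL1, had more reads in WT FTL than in WT Col-0.

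The higher members were RDM1, DRB3 and DRB4. RDM1 rose by 3.39 ± 1.05 SE (DESeq2 adjusted p 0.00646), and AT3G22670, with which TAIR10.1 gives it a shared transcript, had 0 reads in every library. DRB3 rose by 1.22 ± 0.42 SE (DESeq2 adjusted p 0.0151) and DRB4 by 1.10 ± 0.41 SE (DESeq2 adjusted p 0.0283). Without WT FTL replicate 2 none of the 3 was called (DESeq2 adjusted p 0.16, 0.152 and 0.298), and without WT Col-0 replicate 2 none was either (0.0892, 0.205 and 0.116). DRB4 also lost the call without WT Col-0 replicate 1 (0.148), without independent filtering (0.0524) and under scaling by total reads (0.119). CLSY2 at 0.55 ± 0.39 SE and HEN1 at 0.58 ± 0.46 SE were not called.

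**Figure D5:**
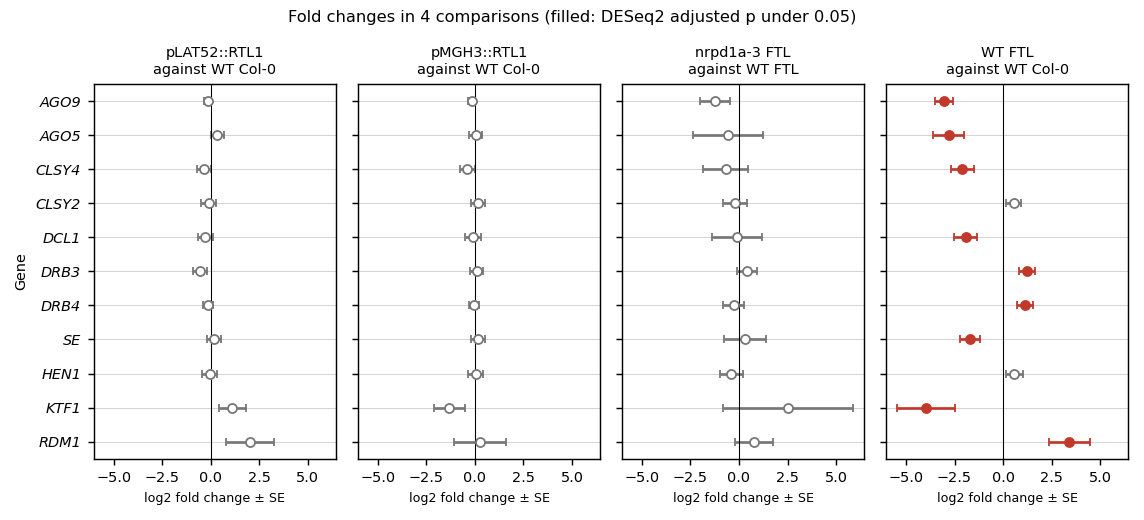
DESeq2 log2 fold changes (points) with SE (bars) of 11 members in 4 comparisons, filled where the adjusted p was under 0.05. The points of the 9 abundant genes lie between -0.56 and 0.33 for pLAT52::RTL1 and between -0.40 and 0.17 for pMGH3::RTL1, while AGO9 is at -3.05 in WT FTL against WT Col-0.

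The effects of pLAT52::RTL1 and of nrpd1a-3 FTL, each against its own wild type, were compared in a fit of all 10 libraries. Of 17 members with an adjusted p the 1 called was RTL1 (DESeq2 adjusted p 0.0263), beside 2.73% of 11852 features. RTL1 is the transgene and had 0 reads in the FTL experiment, so this call was set by the construct. The difference for AGO9 was 1.05 ± 0.67 SE (DESeq2 adjusted p 0.595). It was called without WT FTL replicate 2, at 1.56 (DESeq2 adjusted p 0.0457), and without nrpd1a-3 FTL replicate 1, at 1.87 (DESeq2 adjusted p 0.0455). The RTL1 call was lost without WT FTL replicate 1, either WT Col-0 library or either pLAT52::RTL1 library, and edgeR's quasi-likelihood test gave an adjusted p of 1.

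The wider pathway was followed in a list of 45 other genes, among them the methyltransferase DRM2, the FDM and MORC proteins and exonucleases that degrade small RNAs or cleaved targets. Their summed level was 88.6 to 140 RPM in the unsorted libraries and 14.8 to 35.7 in the sorted ones. In WT FTL against WT Col-0, 9 of the 28 with an adjusted p were called lower and 0 higher. Over all 16312 features, 30.3% were called (15.4% lower and 14.9% higher). The share called, 9 of 28, was close to that background, though all 9 were lower. Their median log2 fold change, over the 28, was -1.46 beside 0.00 over all features. NERD, a protein linking silencing and histone marks, fell by 2.28 ± 0.37 SE (DESeq2 adjusted p 2.84e-08), XRN3, a nuclear exonuclease, by 2.40 ± 0.46 SE (DESeq2 adjusted p 3.02e-06) and MORC4, a chromatin ATPase, by 1.93 ± 0.34 SE (DESeq2 adjusted p 4.21e-07).

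In the comparisons with RTL1 or the mutant, none of these 45 genes was called by DESeq2. An adjusted p was had by 21 in pLAT52::RTL1 against WT Col-0, 42 in pMGH3::RTL1 against WT Col-0, 19 between the constructs and 40 in nrpd1a-3 FTL against WT FTL. Their median log2 fold changes were -0.02, -0.00, 0.06 and 0.07. Over all features tested, the shares called in these comparisons were 14.3%, 0.0217%, 12.9% and 0.008%, in the same order.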

How the data were processed

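The deposited values are unnormalized counts of reads over genes, TEs and intergenic intervals in TAIR10 coordinates, as the authors made them. Per the submitters' processing notes and the methods, paired reads were aligned with STAR. The counting program, its use of strand and its treatment of multiply mapped reads are not given in the sources used here. Counts were even for 65.7% to 74.8% of features over 20 reads, so both mates appear to be counted and precision is overstated. Genes and TEs were tested with DESeq2 1.42.0 in R 4.3.3 (median-of-ratios size factors, Wald test, independent filtering, Benjamini-Hochberg adjustment at 0.05, unshrunken fold changes). The RTL1 experiment (6 libraries) and the FTL experiment (4) were fitted apart. WT FTL against WT Col-0 and the difference of effects came from a fit of all 10. Normalized counts use the size factors of the fit concerned. Exon lengths, windows and the sequence came from TAIR10.1, whose nuclear chromosomes have the lengths of the tables. Values are given by library for members with a mean of at least 50 reads in a group or a call, RTL1 and NRPD1A as checks, and others by range. HYL1 and the DRB3 interval were chosen after their values were seen. The rule for the members uses gene names only, but members and lists were chosen with earlier results of these data known. The alternatives included edgeR 4.0.16. The tests were tried on simulated counts first. Labels name biological replicates.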

Additional observations from a re-analysis of the deposited data

Results flagged for a closer look

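RTL1 differed in its response to the transgene (pLAT52::RTL1) and to the mutation (nrpd1a-3 FTL), with a log2 difference of 9.13 ± 2.63 SE (DESeq2 adjusted p 0.0263). RTL1 is the transgene and had 0 reads in WT Col-0 and in the FTL experiment, so the call was set by the construct, and the fitted difference depends on groups at 0 reads and is no bound. KTF1 differed between the constructs, with a log2 difference of 2.44 ± 0.77 SE (DESeq2 adjusted p 0.0152), on counts of 59 reads or fewer. The intergenic interval on the 3′ side of DRB3, which entered no comparison, had a mean of 23297 reads in WT FTL and of 7992 in WT Col-0, against 260.0 and 110.0 for DRB3 itself. Groups of 2 libraries were too small for a search for outlying samples.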

How the results depend on the processing

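RTL1 was the 1 member called in pLAT52::RTL1 against WT Col-0 under all 14 alternatives, and no member was called in nrpd1a-3 FTL against WT FTL under 13. The number of members called in pMGH3::RTL1 against WT Col-0 was 0 to 1 when a library was left out. Between the constructs it was 2 under scaling by total reads (KTF1 and AGO9), 0 with counts halved, 0 in the fit of all 10 libraries, and 0 to 0 when a library was left out. In WT FTL against WT Col-0 it was 3 to 8 when a library was left out, and DRB4 was lost without independent filtering and under scaling by total reads. For the difference of effects it was 0 with edgeR, 0 with counts halved and 0 to 2 when a library was left out. Without independent filtering the 1 call was HYL1 in place of RTL1. AGO9 changed sign in pLAT52::RTL1 against WT Col-0 under scaling by total reads (0.33), and between the constructs its range was -0.10 to 0.14 when a library was left out. Over all features, 45.6% of the calls in pLAT52::RTL1 against WT Col-0 were higher, and 87.2% under scaling by total reads. The ratio of AGO9 to DRB4 levels was 1.96 with genomic spans.

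The sources used here do not say that a replicate number marks a shared sort, culture or day. With a replicate block the members called were 1, 1 and 1 in the 3 RTL1 comparisons, 0 in nrpd1a-3 FTL against WT FTL, 9 in WT FTL against WT Col-0 and 0 for the difference of effects. In nrpd1a-3 FTL against WT FTL the block raised the calls over all features from 2 to 407, with 1 member left with an adjusted p. Deviations of same-numbered WT FTL and nrpd1a-3 FTL libraries correlated across 7540 features (0.574).

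Depth limited most members: 34 of 44 had a mean under 50 reads in every group, and groups of 2 libraries leave the spread poorly known.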
